A study of Mus musculus with 4 samples.

Results

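The genes described here are 10 marker genes of macrophages, measured in mouse embryonic fibroblasts that were being reprogrammed. They are C1qa, C1qb, C1qc, Lyz2, Cd68, Csf1r, Adgre1, Tyrobp, Fcer1g and Ptprc, chosen by name, and all 10 have an entry among the 26809 entries used. The question the values address is how far these genes were expressed in cells with or without Osr2 and with or without SB431542. The fibroblasts, of C57BL/6 background, carried a transgene for Osr2, a zinc-finger transcription factor, or, in the control groups, for the fluorescent protein Kusabira Orange. All 4 groups also received SeVdp(KOSMaB), a Sendai virus vector that delivers reprogramming factors, and were selected with blasticidin S at 2 µg/mL. RNA was taken on day 5. In each kind of cell, 1 library came from untreated cells and 1 from cells given 10 µM SB431542, which blocks the kinase activity of TGF-β type I receptors. With 1 library a group there is no estimate of spread and no test. The labels name no macrophage, and how many embryos the fibroblasts came from is not given in the sources used here.

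Macrophages are phagocytes of the myeloid lineage that live in almost every tissue, connective tissue of the embryo included. They depend on the CSF1 receptor, whose ligands CSF1 and IL-34 come largely from neighbouring cells such as fibroblasts. Resident macrophages are a main source of C1q, the recognition molecule of the classical complement pathway, which is built from A, B and C chains, each with a collagen-like stalk and a globular head. TYROBP (DAP12) and the Fc receptor γ chain (Fcer1g) are small membrane adaptors whose cytoplasmic ITAM, a pair of tyrosine-based motifs, recruits the kinase Syk when an associated receptor is engaged.

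The 4 libraries were not alike in depth. The untreated control library held 18272276 recovered reads, the treated control library 13351640, the untreated Osr2 library 14433987 and the treated Osr2 library 1651831. The TPM as deposited of all entries used summed to 345864, 452145, 270168 and 96038 in the same order, so these values stand on unlike totals. Genes encoded by mitochondrial DNA held 15.1% of the reads of the last library against 0.694% to 2.42% in the others. Of 9228 genes for which at least 20 reads would be reached at that depth by the levels of control cells with SB431542, 198 were listed at 0 in it. Osr2 itself stood at 0.890, 0.764, 59.1 and 13.7 TPM in the same order of libraries, so the transgene labels fit. The fibroblast label also fits its markers: 10 fibroblast genes summed to 1435, 1136, 9249 and 461 TPM. All 18053 entries in control cells and all 16622 in Osr2 cells had at least as many reads in the untreated column as in the treated one, as if the reads of the treated library were also part of the untreated one. A further set of values, called read subtraction, therefore takes the treated reads out of the untreated column.

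Differences are of log2(TPM + 1), relative to the median gene: each library was first divided by its median ratio to the untreated control over the 7867 genes that averaged 5 TPM or more. That shift was -0.80 for Osr2 against control without SB431542, -3.51 with it, 0.46 for SB431542 in control cells and -2.25 in Osr2 cells, on the log2 scale. A gene was called higher or lower at a difference of at least 1 in size, and measured at 1 TPM or more in any library. Of the members, 9 were measured and Ptprc was not; C1qa, C1qc and Adgre1 reached 1 TPM in an Osr2 library only and so entered through the group in which they were high. Folds take no pseudocount: they compare reads after the same scaling to the median gene, with exact 95% intervals that cover counting error only.

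The C1q chains had the members' largest differences between Osr2 and control cells, without and with SB431542, relative to the median gene; after read subtraction Lyz2, at 2.67 without SB431542, lay above C1qb at 2.06 and C1qc at 2.37. The genes C1qb, C1qc and C1qa lie in this order on the minus strand of chromosome 4, within 18675 bases (GRCm38, GENCODE M21), with starts at 136880129, 136889804 and 136895917 and ends at 136886187, 136893065 and 136898803. Beyond their position the chains share a globular head and a collagen-like stalk, of which the stalk is shown here. Its longest unbroken run of Gly-X-Y units is given here from the coding sequence of the first GENCODE M21 transcript of each gene, with the glycine codons in capitals.
C1qa: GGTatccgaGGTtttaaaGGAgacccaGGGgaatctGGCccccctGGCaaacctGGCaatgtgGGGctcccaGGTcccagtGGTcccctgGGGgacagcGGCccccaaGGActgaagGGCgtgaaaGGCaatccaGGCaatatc
C1qb: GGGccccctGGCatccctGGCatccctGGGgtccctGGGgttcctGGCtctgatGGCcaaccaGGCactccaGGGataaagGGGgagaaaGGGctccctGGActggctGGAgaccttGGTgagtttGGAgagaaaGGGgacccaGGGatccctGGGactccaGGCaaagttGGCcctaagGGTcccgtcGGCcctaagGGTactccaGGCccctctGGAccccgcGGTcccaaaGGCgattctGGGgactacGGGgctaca
C1qc: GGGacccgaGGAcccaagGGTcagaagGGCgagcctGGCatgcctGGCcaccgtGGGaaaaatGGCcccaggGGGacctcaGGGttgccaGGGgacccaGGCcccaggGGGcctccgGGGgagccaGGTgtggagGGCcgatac
The run covers 16 units in C1qa, 29 in C1qb and 16 in C1qc, at coding bases 184 to 327, 91 to 351 and 202 to 345.

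C1qa stood at 0.462 TPM in untreated control cells (7 reads), 0.242 in treated control cells (2 reads), 9.87 in untreated Osr2 cells (144 reads) and 3.07 in treated Osr2 cells (20 reads). C1qb stood at 3.15, 3.01, 20.2 and 10.1 TPM in the same order, from 50, 26, 308 and 69 reads. C1qc was listed at 0.852, 0.782, 8.45 and 2.40 TPM, from 24, 12, 229 and 29 reads. In all of the chains both Osr2 libraries lay above both control libraries on the TPM as deposited, and the treated Osr2 library lay below the untreated one. Relative to the median gene, C1qa was 37.2-fold higher with Osr2 without SB431542 (17.6 to 94.2), C1qb 11.1-fold (8.24 to 15.3) and C1qc 17.3-fold (11.3 to 27.5). As log2 differences these were 3.64, 3.12 and 3.08, against 2.89, 2.35 and 2.35 on TPM as deposited. After read subtraction the folds were smaller, at 11.9 for C1qa (4.97 to 37.3), 4.78 for C1qb (3.14 to 7.61) and 8.0 for C1qc (4.48 to 15.7).

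**Figure D1:**
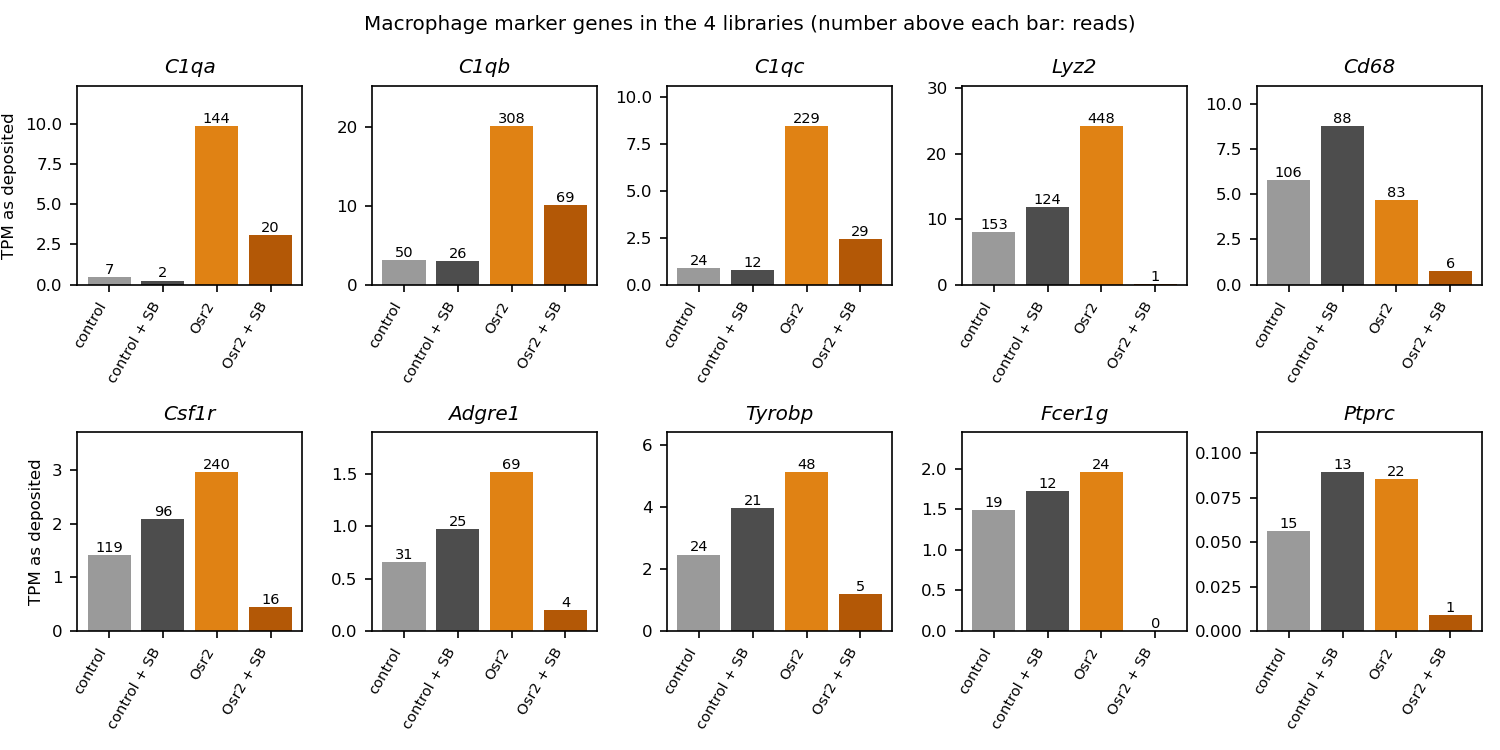
TPM as deposited (vertical axis, a scale of its own in each panel) of the 10 macrophage marker genes in the 4 libraries, with the number of recovered reads above each bar; SB stands for SB431542. Each bar is 1 library. C1qa, C1qb and C1qc are higher in both Osr2 libraries, Lyz2 has 448 reads in untreated and 1 in treated Osr2 cells, and Fcer1g is listed at 0 in the latter.

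With SB431542 the C1q chains again separated Osr2 from control cells. C1qa was 145-fold higher (35.2 to 1279, on 20 against 2 reads), C1qb 38.5-fold (24.2 to 62.9) and C1qc 35.0-fold (17.3 to 75.4). Their log2 differences were 4.49, 4.74 and 3.74 relative to the median gene and 1.71, 1.47 and 0.93 on TPM as deposited. The direction was therefore the same on both scales, while the size depended on the scale. The treated Osr2 library is the shallow one with 15.1% mitochondrial reads, and the part of that in these values was not tested.

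The 3 chains were not at equal levels in any library. Per base of union exon, C1qb was the highest chain in all 4 libraries. The TPM ratio of C1qa to C1qb was 0.146 in untreated control cells (0.0560 to 0.325), 0.0805 in treated control cells (0.00926 to 0.321), 0.489 in untreated Osr2 cells (0.398 to 0.598) and 0.303 in treated Osr2 cells (0.175 to 0.505). On all reads, the interval of untreated Osr2 cells lay above those of both control libraries and overlapped that of treated Osr2 cells. Read subtraction left 5 reads of C1qa and 24 of C1qb in untreated control cells, and 124 and 239 in untreated Osr2 cells. Whether the intervals of these libraries stay apart on the reads left was not tested. For C1qc to C1qb the ratios were 0.270, 0.260, 0.419 and 0.237 in the same order. The union exon length behind the TPM of C1qc, 1931 bases, is 1.61 times its longest transcript of 1203 bases. Per kilobase of the longest transcript and 10⁶ reads, C1qc was at 13.2 and C1qa at 9.59 in untreated Osr2 cells, so the order of these chains depends on the length used, and C1qb was at 19.6.

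Of the genes beside the C1q cluster, Ephb2, an ephrin receptor gene, stood at 4.59, 6.15, 9.42 and 0.216 TPM, a log2 difference of 1.64 without and -0.97 with SB431542. Epha8, on the other side of the cluster, stood at 0.815, 1.04, 0.136 and 0.0678 TPM, with differences of -0.55 and -0.17. Zbtb40, next to it, stood at 12.5, 15.3, 4.53 and 2.28 TPM, with differences of -0.61 and 0.72 (as deposited -1.29 and -2.31) and of 1.17 for SB431542 in Osr2 cells (-0.75 as deposited).

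The receptor genes had smaller differences than the C1q chains. Csf1r, the receptor on which macrophage survival depends (chromosome 18, 61100598 to 61132149, plus strand), stood at 1.41, 2.09, 2.96 and 0.443 TPM, from 119, 96, 240 and 16 reads. Without SB431542 it was 3.65-fold higher with Osr2 (2.92 to 4.58; log2 difference 1.35), and with SB431542 2.42-fold (1.33 to 4.13; 0.89). The deposited TPM gave 0.72 and -1.10, so the direction with SB431542 depended on the scale. Csf1r overlaps Hmgxb3 on the other strand and a microRNA gene, Mir6983, and whether the counting used strand is not given in the sources used here. Adgre1, which encodes the F4/80 antigen (chromosome 17, 57358691 to 57483527), stood at 0.657, 0.972, 1.52 and 0.197 TPM, from 31, 25, 69 and 4 reads. It was 4.03-fold higher without SB431542 (2.60 to 6.36; log2 difference 1.14, as deposited 0.60), and its interval with SB431542 took in 1 (2.32-fold, 0.587 to 6.72).

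Lyz2, which encodes the lysozyme of macrophages and other myeloid cells (chromosome 10, 117277331 to 117282321, minus strand), stood at 7.97 TPM in untreated control cells (153 reads), 11.9 in treated control cells (124 reads), 24.3 in untreated Osr2 cells (448 reads) and 0.121 in treated Osr2 cells (1 read). It was the highest member per base of union exon in each library but the last. Without SB431542 it was 5.30-fold higher with Osr2 (4.40 to 6.40), a log2 difference of 2.27, or 1.49 as deposited. With SB431542 it was 8.56-fold lower (1.51 to 341), a log2 difference of -2.26, or -3.52 as deposited. No other member was past the size rule in opposite directions without and with SB431542. Its near-identical paralog Lyz1 stood at 0.109, 0.199, 0.0564 and 0 TPM, and how reads shared by the pair were assigned is not given in the sources used here.

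Cd68, a lysosomal glycoprotein gene of phagocytes (chromosome 11, 69664213 to 69666153), was at 5.78, 8.81, 4.71 and 0.763 TPM, from 106, 88, 83 and 6 reads. Its direction without SB431542 depended on the scale. Relative to the median gene it was 1.42-fold higher without SB431542 (1.05 to 1.91), whereas its TPM as deposited was lower (log2 differences of 0.44 and -0.25). With SB431542 the relative difference was -0.02.

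The adaptors Tyrobp and Fcer1g carry the same kind of signalling motif and are shown by the stretch that encodes it, from the first GENCODE M21 transcript of each. Capitals mark the tyrosine codons and the leucine codons that close each YxxL block, and 7 codons lie between the blocks in both.
Tyrobp: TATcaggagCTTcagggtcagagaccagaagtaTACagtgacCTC
Fcer1g: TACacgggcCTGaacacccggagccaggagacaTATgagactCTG
Tyrobp (chromosome 7, 30413760 to 30417585) stood at 2.47, 3.96, 5.13 and 1.20 TPM, from 24, 21, 48 and 5 reads. It was 3.62-fold higher with Osr2 without SB431542 (2.17 to 6.17; log2 difference 1.52, as deposited 0.82). With SB431542 the relative value was 3.45-fold (1.02 to 9.40; 1.50), but as deposited the difference was -1.17, the opposite direction. Fcer1g (chromosome 1, 171229572 to 171234365) stood at 1.49, 1.73 and 1.96 TPM, from 19, 12 and 24 reads, and was listed at 0 in treated Osr2 cells. It was 2.28-fold higher without SB431542 (1.20 to 4.41), short of the size rule at 0.82 (0.25 as deposited), and after read subtraction the interval took in 1 (1.65-fold, 0.688 to 4.52).

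Ptprc, the gene of the pan-leukocyte antigen CD45 (chromosome 1, 138062861 to 138175708), stayed under 0.1 TPM in every library, at 0.0562, 0.0893, 0.0856 and 0.00873. The reads behind these values were 15, 13, 22 and 1. Its union exon length of 18313 bases is 3.19 times its longest transcript of 5740 bases, so these TPM values are low by construction. Per kilobase of the longest transcript and 10⁶ reads the levels were 0.143, 0.170, 0.266 and 0.105, the lowest or next to lowest of the members in each library. Relative to the median gene, Ptprc was 2.65-fold higher with Osr2 without SB431542 (1.31 to 5.50), on 22 against 15 reads. The TPM ratio as deposited was 1.52.

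**Figure D2:**
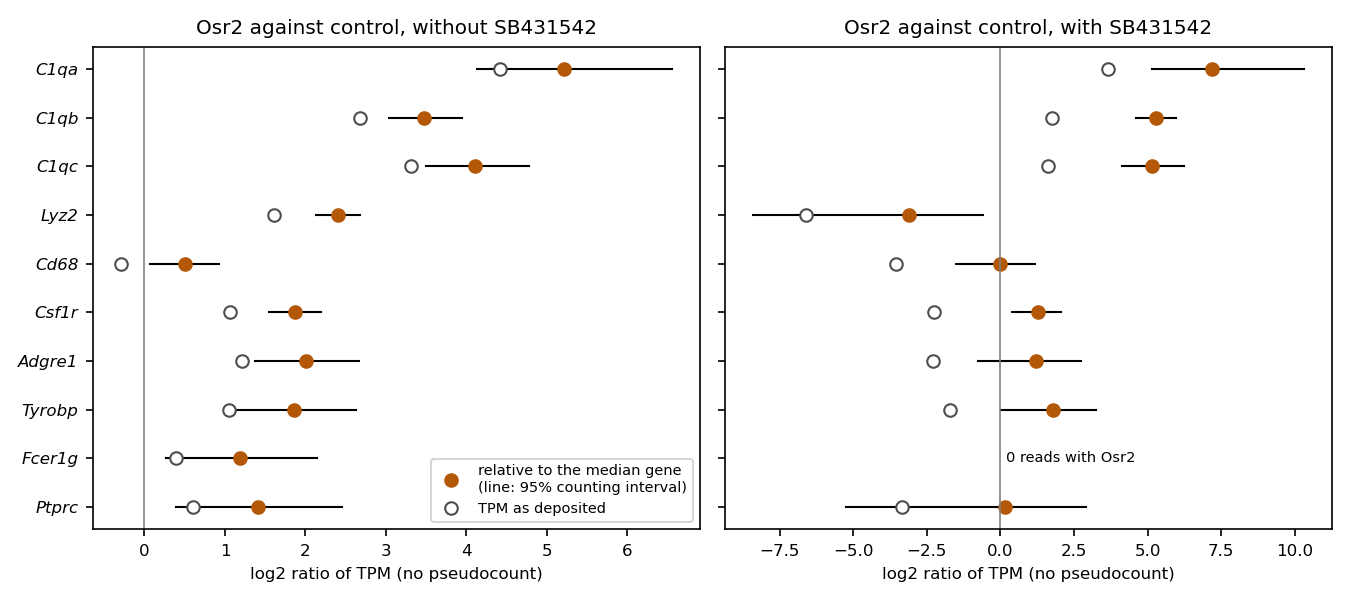
Log2 ratio of TPM without a pseudocount (horizontal axis) for Osr2 against control, without SB431542 on the left and with it on the right, for each macrophage marker gene; the axes differ between panels. Filled points are relative to the median gene, with lines for the exact 95% counting interval, and open points are TPM as deposited. The C1q chains lie to the right of 0 on both scales in both panels, while with SB431542 Csf1r, Adgre1, Tyrobp and Ptprc lie on opposite sides of 0 on the different scales.

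Osr2 against control without SB431542 gave 7 of the 9 measured members higher and 0 lower relative to the median gene. Among the 13509 measured genes, 16.6% were higher and 11.4% lower. The 7 were C1qa, C1qb, C1qc, Lyz2, Csf1r, Adgre1 and Tyrobp, and the count was the same after read subtraction, beside 17.3% higher and 12% lower of all genes. Of these, C1qa, C1qc and Adgre1 passed the filter through an Osr2 library only, the group in which they were high. The median difference of the 9 measured members was 1.52 and that of all measured genes was -0.02. On TPM as deposited, 4 were higher (the C1q chains and Lyz2) and 0 lower, beside 7.78% higher and 30.6% lower of all genes. In this bulk RNA, more cells of a type and more RNA per cell cannot be told apart.

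With SB431542, 4 of the 9 measured members were higher (C1qa, C1qb, C1qc and Tyrobp) and 2 lower (Lyz2 and Fcer1g). Of all measured genes, 19.9% were higher and 27.9% lower. C1qa and C1qc passed the filter through Osr2 libraries only. Fcer1g was listed at 0 against 12 reads, and the counting interval of its ratio, 0 to 5.22, took in 1. The median of the 9 measured members was 0.89 and that of all measured genes was -0.21. As deposited, 2 were higher (C1qa and C1qb) and 5 lower, beside 0.348% and 88.1% of all genes. The 5 lower members as deposited were Lyz2, Cd68, Csf1r, Tyrobp and Fcer1g, and these counts rest on 151 reads over all members in the treated Osr2 library.

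**Figure D3:**
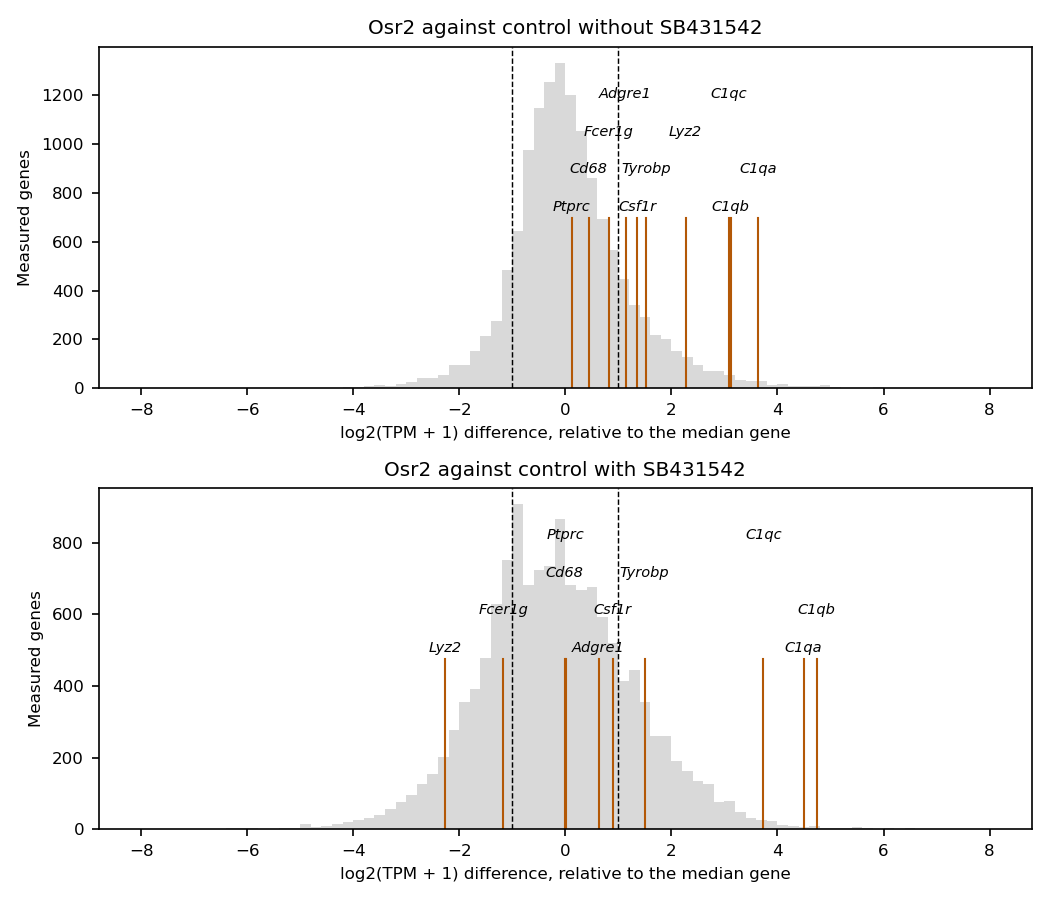
Number of measured genes (vertical axis) by log2(TPM + 1) difference relative to the median gene (horizontal axis, bins of 0.2) for Osr2 against control, without SB431542 above and with it below. Coloured lines mark the macrophage marker genes, Ptprc included though it was not measured, and dashed lines the size rule of 1. The C1q chains lie between 3.08 and 3.64 above and between 3.74 and 4.74 below, and Lyz2 lies at 2.27 above and at -2.26 below.

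In control cells SB431542 left 0 of the 9 measured members higher and 0 lower, beside 0% higher and 0.577% lower of all measured genes (0% and 0.341% on TPM as deposited). Shared reads would pull every difference towards 0, so the values after read subtraction are given beside these. After subtraction 0 members were higher and 1, C1qb, was lower, against 9.98% and 6.33% of all measured genes. The C1q chains had the members' lowest differences on both, at -0.31 for C1qa, -0.38 for C1qb and -0.24 for C1qc as they stand and at -0.89, -1.09 and -0.72 after subtraction. In reads after subtraction, C1qa was 7.34-fold lower with SB431542 (1.20 to 77.1, on 2 against 5 reads left), C1qb 2.71-fold (1.49 to 4.91, on 26 against 24) and C1qc 2.94-fold (1.21 to 7.15, on 12 against 12). The untreated control column keeps fewer reads in all than the treated one after subtraction, so equal reads stand for a lower level with SB431542. Lyz2 and Cd68 went the other way after subtraction, at 0.47 and 0.60, with folds whose intervals took in 1 (1.46, 0.965 to 2.26, and 1.66, 0.994 to 2.94).

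In Osr2 cells SB431542 left 1 of the 9 measured members higher (C1qb) and 2 lower (Lyz2 and Fcer1g), beside 16.5% higher and 26.7% lower of all measured genes. For Fcer1g, listed at 0 against 24 reads, the interval of the ratio was 0 to 1.77 and took in 1. C1qb was 2.84-fold higher after read subtraction (2.14 to 3.73), a log2 difference of 1.23 before and 1.47 after it. C1qa and C1qc had ratios of 1.59 (0.938 to 2.56) and 1.43 (0.932 to 2.12), whose intervals took in 1. Lyz2 was 45.4-fold lower (8.10 to 1797, on 1 against 447 reads), with a log2 difference of -4.43 before and after subtraction. On TPM as deposited C1qb was lower by this treatment (-0.93) rather than higher, and 0 members were higher and 8 lower, beside 0.118% and 64.1% of all genes. Lyz2 was lower on every scale used here, at -4.49 as deposited. Its 1 read comes from the library in which 198 of 9228 genes were listed at 0 against their level in treated control cells. Whether these zeros reflect the library or lower expression, and their part in the value, was not tested.

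A share of the members' own reads does not depend on the scale set between libraries. The C1q chains held 14.8% of the 548 member reads in untreated control cells (exact 95% interval 11.9 to 18.0), 9.55% of 419 in treated control cells (6.91 to 12.8), 42.2% of 1615 in untreated Osr2 cells (39.7 to 44.6) and 78.1% of 151 in treated Osr2 cells (70.7 to 84.5). Both Osr2 libraries lay above both control libraries, with intervals that do not overlap. After read subtraction the share was 31.8% in untreated control cells (23.9 to 40.6) and 38.5% in untreated Osr2 cells (36.0 to 41.0), and these intervals overlap. Lyz2 held 27.9%, 29.6%, 27.7% and 0.662% of the member reads, so its share was alike in the first 3 libraries and near 0 in treated Osr2 cells. Per 10⁶ reads of the library, the C1q chains together had 4.43, 3.0, 47.2 and 71.4 reads, Lyz2 8.37, 9.29, 31.0 and 0.605, and the other 6 members 17.2, 19.1, 33.7 and 19.4.

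**Figure D4:**
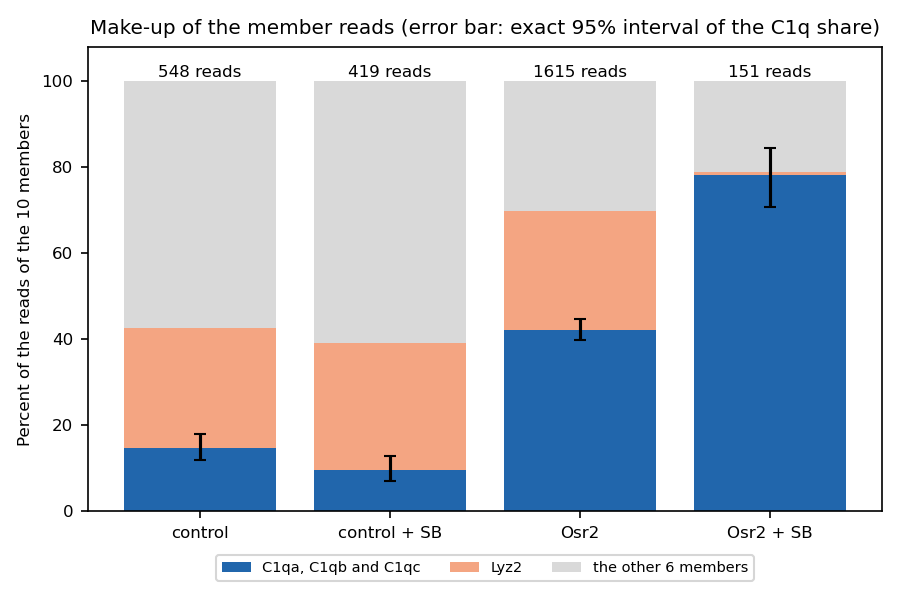
Percent of the reads of the 10 macrophage marker genes (vertical axis) that fell on the C1q chains, on Lyz2 and on the other 6 members in each library; the total number of member reads stands above each bar and SB stands for SB431542. Error bars are exact 95% intervals of the C1q share. The C1q share is 14.8%, 9.55%, 42.2% and 78.1%, and Lyz2 is nearly missing from treated Osr2 cells.

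Most other macrophage genes stayed under 1 TPM. Counts in this and the further lists stand beside the shares of all measured genes. Without SB431542 these were 16.6% higher and 11.4% lower (7.78% and 30.6% as deposited). With SB431542 they were 19.9% and 27.9% (0.348% and 88.1% as deposited). Of 40 further surface and lysosomal genes of macrophages, 39 had an entry and 12 were measured. Without SB431542, 9 of the 12 were higher with Osr2 and 1 was lower (median 1.28), and 4 higher and 1 lower as deposited. Ctss, a cathepsin of antigen-presenting cells, stood at 1.92, 2.87, 6.56 and 1.18 TPM, a difference of 2.09. Gpnmb, a glycoprotein of lysosomes that many cell types express, stood at 21.4, 23.7, 39.0 and 25.2 TPM, with differences of 1.62 and, with SB431542, 3.53 (as deposited 0.83 and 0.08). The lower gene was the inhibitory Fc receptor Fcgr2b, at 5.18, 8.30, 0.148 and 0.0828 TPM and a difference of -2.30. Between 8 and 22 of the 39 were at 0 reads in a library, most of them in treated Osr2 cells.

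The transcription factors of the lineage were measured in 12 of 15 cases, with 5 higher and 0 lower without SB431542 (median 0.77; 2 and 1 as deposited) and 7 higher and 0 lower with it (median 1.26; 0 and 5 as deposited). Cebpa stood at 2.97, 3.20, 9.30 and 2.73 TPM, with differences of 2.12 and 2.83 (as deposited 1.38 and -0.17), and is also a factor of fat cell differentiation. Cebpb, expressed in many cell types, was at 133, 106, 163 and 96.6 TPM.

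Of 22 genes tied to signalling by the ITAM adaptors and CSF1R, 13 were measured, 5 of them higher and 0 lower without SB431542 (median -0.08; 2 and 2 as deposited). Lyn, a kinase that phosphorylates ITAMs, stood at 0.657, 1.05, 2.92 and 0.0392 TPM, a difference of 1.88. Grb2, an adaptor of most receptor kinases, was at 32.4, 48.3, 17.6 and 2.58 TPM, a difference of -0.08. The ligand gene Csf1 was well expressed in each library, at 130, 149, 90.6 and 87.0 TPM, with a difference of 0.28 without and 2.73 with SB431542. As deposited these were -0.51 and -0.77, the opposite direction. The other ligand gene, Il34, was at 0.420, 0.514, 2.11 and 0.326 TPM, a difference of 1.72 (1.13 as deposited). Of 16 other complement and lysozyme genes, 12 were measured, 7 higher and 1 lower (median 1.50; 5 and 3 as deposited). Serping1, the inhibitor of the C1 complex to which C1q belongs, stood at 4.37, 6.06, 34.9 and 0.756 TPM, a difference of 3.53.

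Some genes of other cell types were also higher with Osr2 without SB431542. All 10 fibroblast markers were higher without SB431542, with a median of 3.46, above that of the macrophage marker genes, and Col1a1 went from 522 to 4616 TPM. With SB431542, 4 of the fibroblast markers were higher and 1 lower (0 and 7 as deposited). Of all measured genes, 19.9% were higher and 27.9% lower in that comparison (0.348% and 88.1% as deposited). Their sums of 1435, 1136, 9249 and 461 TPM and those of the 10 members, 24.3, 33.5, 79.1 and 18.3 TPM, were both highest in untreated and lowest in treated Osr2 cells as deposited. The sum over all entries used was also lowest in treated Osr2 cells, at 96038 TPM against 270168 to 452145 in the other libraries. The part of that total in the low sums was not tested. Relative to the median gene the members' sums were 24.3, 24.4, 138 and 152, highest in treated Osr2 cells. The fibroblast sums were not worked out on that scale, so the sums of these sets can be compared as deposited only. Of the 14 lysosomal genes of many cell types, 13 were higher and 0 lower without SB431542 (median 1.69, with 6 and 0 as deposited). With SB431542, 3 were higher and 2 lower (0 and 14 as deposited), beside the shares of all measured genes just given. Ctsk, a protease of osteoclasts that fibroblasts also express, stood at 3.45, 4.0, 36.3 and 0 TPM, and was the 1 higher of 3 measured osteoclast markers without SB431542 (median 0.21; 1 higher and 1 lower as deposited). The other measured osteoclast markers were Tnfrsf11a, the receptor gene of RANKL, at 15.7, 21.3, 5.85 and 5.15 TPM (-0.58, as deposited -1.28) and Nfatc1 at 0.21. Both measured microglia markers were higher, among them Tmem119, also known from bone-forming cells, at 11.8, 11.6, 52.6 and 3.24 TPM. The part of these genes in the macrophage result was not tested.

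Among the markers of other blood cells, T cell markers summed to 1.42, 2.22, 0.18 and 0 TPM, B cell markers to 1.39, 2.05, 0.42 and 0.10, and neutrophil markers to 1.21, 1.30, 0.31 and 0. NK cell markers reached at most 0.05 TPM and mast cell markers 0.55 TPM in sum. Dendritic cell markers summed to 4.90, 6.57, 2.26 and 0.32 TPM, erythroid markers to 4.78, 6.42, 1.29 and 0.24, and megakaryocyte and platelet markers to 2.74, 3.28, 2.76 and 1.15. Endothelial markers summed to 12.5, 19.1, 6.40 and 1.24 TPM, of which Tek, a receptor gene of endothelial cells, made up 8.41, 13.4, 4.89 and 0.373. None of these measured markers was higher with Osr2 without SB431542, beside 16.6% of all measured genes. Few were measured: 1 each in the T cell, B cell, erythroid and megakaryocyte lists, 3 each in the dendritic and endothelial lists. In the NK cell, neutrophil and mast cell lists 0 were measured. With so few genes, a count of 0 does not set these lists apart from all measured genes.

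**Figure D5:**
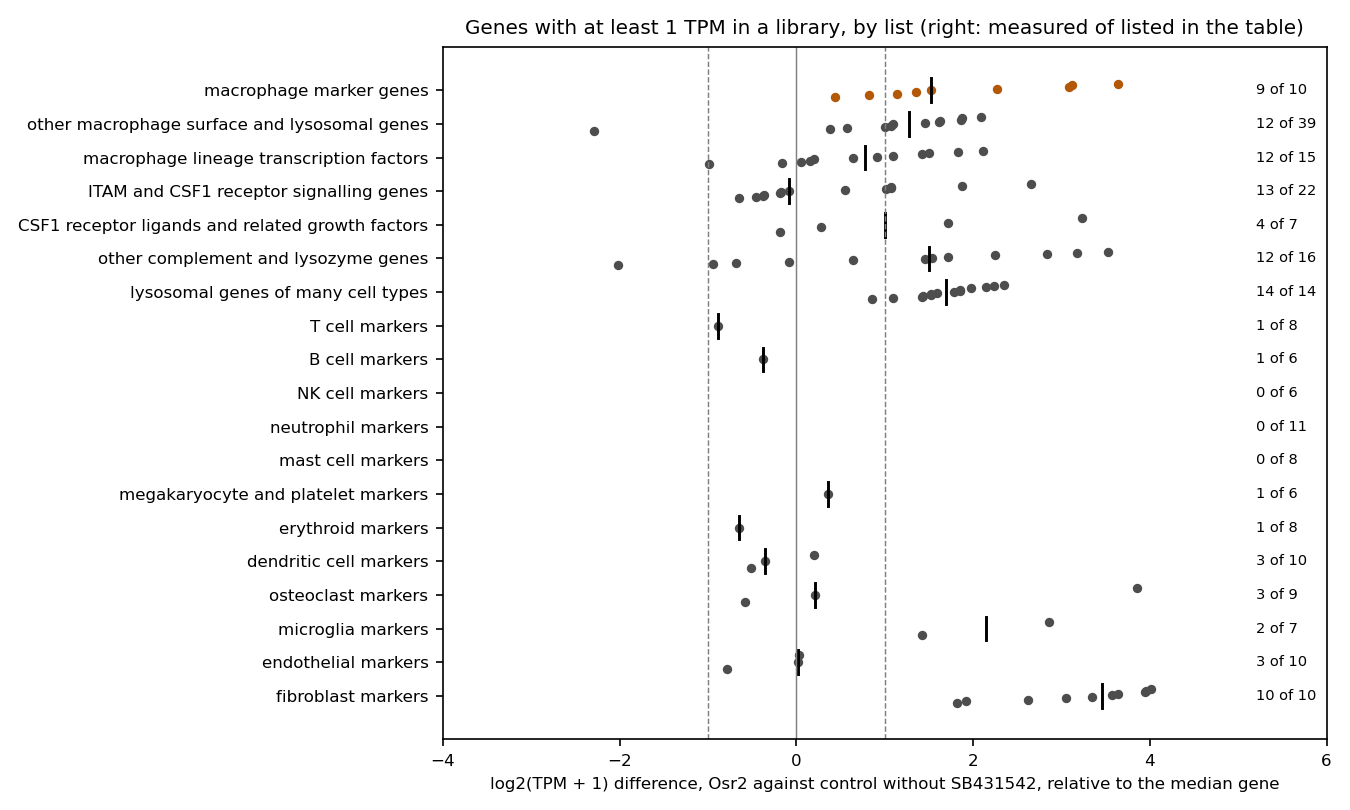
Log2(TPM + 1) difference of Osr2 against control without SB431542, relative to the median gene (horizontal axis), for the measured genes of each list (rows); each point is a gene and each bar the median. The numbers on the right are genes measured of genes with an entry. The macrophage marker genes (median 1.52) and the fibroblast markers (median 3.46) lie to the right of 0. The T cell, B cell and erythroid lists have 1 measured gene each, which does not pass 1.

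By pattern over the 4 libraries, the members fell apart. The distance of each gene's centred log2 level from the median profile of the members (root mean square over the 4 libraries) was 0.0797 for Csf1r, 0.113 for Adgre1 and 0.338 for Tyrobp, and 1.22 for C1qc, 1.46 for Lyz2, 1.55 for C1qa and 1.57 for C1qb. The C1q chains lay below the median profile in both control libraries and above it in both Osr2 libraries, and Lyz2 lay below it in treated Osr2 cells and above it in the other 3 libraries. Among 9757 other genes of at least 5 TPM in a library, the nearest to the median profile were Dnajc3 at 0.0410, Plxdc2 at 0.0499, Socs3 at 0.0521, Dzip1 at 0.0525 and Plcxd2 at 0.0572. With 4 libraries this is a description only.

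Promoters were compared because 7 members were higher together in untreated Osr2 cells. The RefSeq promoter table (GRCm38.p6, 250 bases before to 50 after the start) holds 6 of the 10 members: C1qb, C1qc, Lyz2, Cd68, Fcer1g and Ptprc. The search covered both strands. The letters AGGAAGT, a core of ETS factors such as the macrophage factor PU.1, were added after the sequences had been seen. Spi1, the gene of PU.1, named here after its values were seen, stood at 1.35, 1.68, 0.635 and 0.474 TPM, a difference of -0.16 without SB431542 (-0.52 as deposited) and of 1.15 with it (-0.86 as deposited). For the PU-box the letters were GAGGAA, which overlap that core where they share letters. For C/EBP factors they were TTGCNNAA, for AP-1 they were TGANTCA and for the TATA box TATAAA. The ETS core was found in C1qb, C1qc, Lyz2 and Ptprc and in 9.35% of all 32851 promoters. As these letters were added after the sequences had been seen, the comparison with that share is not a test. Of the 7 higher members, C1qb, C1qc and Lyz2 have a promoter entry. Ptprc, which was not called higher, held the core as well. The 3 promoters with the core whose genes were higher in untreated Osr2 cells are shown on the gene's own strand, with the match, ACTTCCT on this strand, in capitals.
C1qb: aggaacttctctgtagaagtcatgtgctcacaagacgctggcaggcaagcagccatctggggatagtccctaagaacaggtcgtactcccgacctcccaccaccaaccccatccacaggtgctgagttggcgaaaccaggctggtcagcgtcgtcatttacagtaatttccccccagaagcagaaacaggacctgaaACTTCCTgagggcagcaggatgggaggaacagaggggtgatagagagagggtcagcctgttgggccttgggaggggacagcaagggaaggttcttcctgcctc
C1qc: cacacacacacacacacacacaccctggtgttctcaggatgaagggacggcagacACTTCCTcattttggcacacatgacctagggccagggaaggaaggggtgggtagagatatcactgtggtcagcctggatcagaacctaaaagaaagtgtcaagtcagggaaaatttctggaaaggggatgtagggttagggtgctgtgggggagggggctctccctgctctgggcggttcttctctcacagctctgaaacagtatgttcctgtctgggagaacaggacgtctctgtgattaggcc
Lyz2: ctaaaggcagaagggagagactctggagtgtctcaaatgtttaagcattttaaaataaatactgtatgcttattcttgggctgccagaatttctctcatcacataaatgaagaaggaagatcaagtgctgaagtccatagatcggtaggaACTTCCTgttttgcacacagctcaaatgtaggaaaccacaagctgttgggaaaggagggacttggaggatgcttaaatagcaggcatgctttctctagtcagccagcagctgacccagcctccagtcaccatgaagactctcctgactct
They lie on the minus strand at chr4:136886151-136886450, chr4:136892865-136893164 and chr10:117282223-117282522, and the match begins at -53, -195 and -100 from the start site. In C1qc the PU-box overlaps the match. The PU-box was also in C1qb, Cd68 and Ptprc (28.3% of all promoters), the C/EBP and AP-1 letters in Cd68 (10.8% and 7.81%) and the TATA box in Ptprc (13.6%). These are matches of letters within the window and say nothing about binding.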

How the data were processed

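RNA sequencing values of 4 libraries, 1 a group, were used. Per the series design text, the authors aligned reads with STAR 2.7.3a, left at its defaults, to GRCm38.p6, then used featureCounts 2.0.0 on an Ensembl release 75 gene model and turned the counts into TPM; the sequencer was a NovaSeq 6000. The deposited values are TPM. A further table whose 4 columns match no sample was not used. Of 27304 entries, 26 with date names and 469 that share 140 symbols were left out.

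A gene's TPM is a whole multiple of the value of 1 read, so reads were recovered from TPM and the GENCODE M21 union exon length. Of 18129 entries with a length, 18121 (99.96%) came out whole within 0.01 read in all 4 libraries. The recovery was tested on simulated data. No count test was run, since each group has 1 library. Depth ranged from 1651831 to 18272276 recovered reads. A count of 0 allows up to 3 reads, which is 0.164, 0.225, 0.208 and 1.82 per 10⁶ reads in order of the libraries. This and the exact 95% (Clopper-Pearson) intervals cover counting error only. The 198 zeros of the treated Osr2 library were counted against the levels of treated control cells. Genes expressed at a lower level in treated Osr2 cells can be among them, and how many zeros lie beyond counting error was not tested. Alternatives were TPM as deposited, read subtraction, pseudocounts of 0.1 and 5 TPM, no filter and a filter of 5 TPM, and, added later, leaving out the treated Osr2 library and the C1q share after subtraction. The named genes were the members, Osr2, from each list the 2 of highest TPM and the 2 measured ones of largest difference without SB431542 (the text gives some of these, and 1 is not reported here), and the 5 nearest in pattern; Lyz1 and the genes beside the C1q cluster were added. The members, lists and tests were chosen with earlier results of these data known. Python 3.11.15 with numpy 2.4.6, pandas 2.3.3, scipy 1.17.1 and matplotlib 3.10.9 was used.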

Additional observations from a re-analysis of the deposited data

Results flagged for a closer look

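Lyz2 went opposite ways with Osr2 in the 2 treatments: its log2 difference between Osr2 and control cells was 2.27 without SB431542 and -2.26 with it, so the second minus the first was -4.53. With 1 library a group the difference between these effects was not tested, and the value with SB431542 rests on 1 read.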

How the results depend on the processing

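The number of members higher with Osr2 without SB431542 was 7, and it was 4 on TPM as deposited and 4 with a pseudocount of 5 TPM. With SB431542 the members higher went from 4 to 2 on TPM as deposited, and those lower from 2 to 5 on TPM as deposited and to 1 with a pseudocount of 5 TPM or a filter of 5 TPM. For SB431542 in control cells the members lower went from 0 to 1 after read subtraction and with a pseudocount of 0.1 TPM. For SB431542 in Osr2 cells the members higher went from 1 to 0 on TPM as deposited, and those lower from 2 to 8 on TPM as deposited and to 1 with a pseudocount of 5 TPM or a filter of 5 TPM. The C1q share went from 14.8% to 31.8% in untreated control cells and from 42.2% to 38.5% in untreated Osr2 cells after read subtraction. On TPM as deposited, Tyrobp with SB431542 turned to -1.17 for Osr2 against control, and C1qb turned to -0.93 for SB431542 in Osr2 cells. The scale between libraries is what these last values differ by; for the other settings the cause was not tested. Of the 40 differences of single members, 25 moved by less than the wider side of their counting interval on TPM as deposited. The number was 35 after read subtraction, 36 with a pseudocount of 0.1 TPM and 32 with 5 TPM. That interval is wide at few reads and unbounded at 0, so these counts do not measure how stable such members are. C1qa with SB431542 counted as unmoved at 4.49 and 1.71 as deposited, and Adgre1 at 0.63 and -0.72. Leaving out the treated Osr2 library changed none of the counts it could touch. No paired analysis was possible because each group has 1 library. Replicates could not be left out for the same reason. The depth of the treated Osr2 library, 1651831 reads, limits every value with SB431542 in Osr2 cells.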
